A study of Mus musculus with 9 samples.

Results

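The 10 transcription factor genes described here, Pou5f1, Sox2, Nanog, Esrrb, Tfcp2l1, Klf4, Klf2, Tbx3, Zfp42 and Prdm14, belong to the network that keeps mouse embryonic stem (ES) cells in the naive pluripotent state. They were chosen by name, as the genes of the raw count table whose GENCODE M21 symbol is in this list, and all 10 were found among the 20189 genes of the table. The samples were wild-type E14 cells, a mouse ES cell line grown on gelatin with leukemia inhibitory factor (LIF) and serum. Poly(A) RNA was sequenced from 3 samples starved of Thr for 3 h, 3 starved of Cys for 3 h and 3 unstarved samples. All 9 samples therefore shared the genotype, LIF and a single cell line. The titles do not say which medium with all amino acids (AAs) the unstarved samples were kept in, or whether it was changed. The labels describe a starvation medium with dialyzed serum, beta-mercaptoethanol and LIF, but spell out its recipe for Arg and Leu, and samples of Arg or Leu starvation were not analysed here. Nothing in the labels says that replicates came from cultures grown on separate days, so p-values measure the spread between these samples, which may be technical.

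Naive pluripotency is the state of the epiblast before implantation, and ES cells hold it in culture as long as LIF is present. LIF acts through its receptor and the factor STAT3, which turns on Klf4 and Tfcp2l1, while Tbx3 is placed downstream of a second arm of LIF signalling. These inputs converge on Pou5f1, Sox2 and Nanog, whose products bind each other's regulatory DNA, and the network is known for factors that can replace each other in part. The study asked how the transcriptome of ES cells responds within hours to the loss of single AAs, and the 3 groups allow each starvation to be set against unstarved cells and against the other.

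The total count per library ranged from 48763102 to 74962733, and the 10 genes took 0.342% to 0.344% of the counts in unstarved, 0.379% to 0.385% in Thr-starved and 0.355% to 0.357% in Cys-starved libraries. The lowest count of any of them in a library was 444, for Prdm14, so Prdm14 carried the largest counting error of the 10. The spread between replicates across genes had a common coefficient of variation of 3.53%. Levels are given as CPM, counts scaled to the library total after TMM normalization, and as TPM, counts divided by merged exon length and scaled to the same sum in every library, where genes are compared with each other. CPM and TPM are scaled differently. TPM served to order genes within a group and for ratios between genes. Where TPM values of different groups are set side by side, they are described without a test. In bulk RNA, fewer cells of a type and less RNA per cell cannot be told apart.

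The cultures carried the markers of ES cells. All 10 members had over 1 CPM in each group, and the 30 other ES cell marker genes summed to 6689 to 6746 CPM in unstarved, 7600 to 7622 CPM in Thr-starved and 5830 to 5852 CPM in Cys-starved libraries. Markers of fibroblast feeder cells, of which 4 of 5 were in the table, summed to 13.3 to 13.6 CPM in unstarved, 9.48 to 10.6 CPM in Thr-starved and 12.0 to 14.9 CPM in Cys-starved libraries. Markers of 2-cell-like cells were at or near 0, with a sum of 0.734 to 1.75 CPM over all 9 libraries.

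Per length, the order of the 10 genes was nearly the same in the 3 groups, but the step between some of them was not. In unstarved cells, Zfp42 led with 860 ± 11.8 TPM (SD, n = 3) and was at rank 228 of 20171 genes, followed by Pou5f1 with 796 ± 8.85 TPM, Sox2 with 406 ± 6.29 TPM and Nanog with 266 ± 4.81 TPM. Klf2 (234 ± 6.08 TPM), Esrrb (170 ± 3.96 TPM) and Klf4 (102 ± 2.03 TPM) lay in the middle. Tfcp2l1 (60.1 ± 0.719 TPM), Tbx3 (14.2 ± 0.560 TPM) and Prdm14 (12.7 ± 0.710 TPM, rank 7360) were the lowest. The unstarved libraries of every gene were separate from those of its neighbour in this order. With Thr starvation, Esrrb moved from position 6 to 4 at 235 ± 2.80 TPM and Nanog from 4 to 6 at 204 ± 6.89 TPM, and the libraries of Esrrb and Klf2 (229 ± 5.97 TPM) overlapped. With Cys starvation, Esrrb (218 ± 4.23 TPM) and Klf2 (212 ± 2.26 TPM) exchanged places and overlapped as well. When the length of the longest transcript was used, 6 of the 10 genes kept their unstarved position, and the exchanged pairs were Zfp42 with Pou5f1 and Klf2 with Esrrb.

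**Figure D1:**
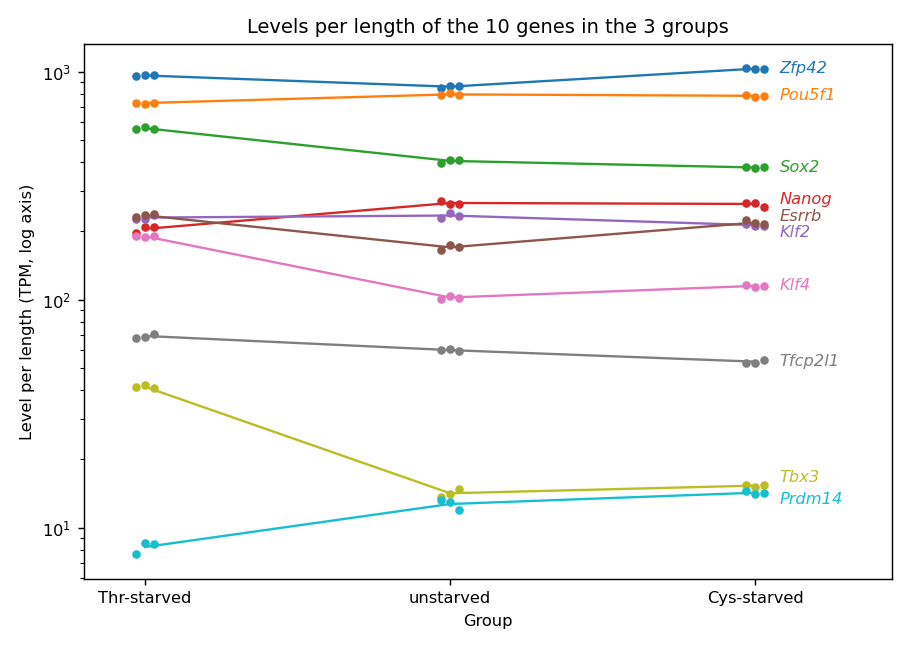
Level per length (TPM, log axis) of the 10 genes in the Thr-starved, unstarved and Cys-starved groups, with a point per library (n = 3 per group) and a line through the group means. Tbx3 stood at 41.5 TPM with Thr starvation against 14.2 TPM in unstarved cells, Prdm14 at 8.22 against 12.7 TPM, and the lines of Nanog and Esrrb cross between unstarved and Thr-starved cells.

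The sequence just upstream of the start site is shown for 4 members, those with a match to the octamer, bound by the central factor of the network, or to the STAT motif, through which LIF acts. RefSeq start sites on GRCm38.p6 were found for 8 of the 10 members, all but Tbx3 and Prdm14, and the 250 bases before the start were searched on both strands for TTTGCAT (the octamer bound by the Pou5f1 product OCT4), CATTGT (bound by SOX factors), GGGNGTGG (KLF), AAGGTCA (ESRRB) and TTCNNNGAA (STAT). The 4 windows, 5' to 3' on the strand of the gene with matches in capitals, are Nanog at chr6:122707239-122707488 (+), Sox2 at chr3:34649745-34649994 (+), Zfp42 at chr8:43307010-43307259 (-) and Esrrb at chr12:86360867-86361116 (+).
Nanog: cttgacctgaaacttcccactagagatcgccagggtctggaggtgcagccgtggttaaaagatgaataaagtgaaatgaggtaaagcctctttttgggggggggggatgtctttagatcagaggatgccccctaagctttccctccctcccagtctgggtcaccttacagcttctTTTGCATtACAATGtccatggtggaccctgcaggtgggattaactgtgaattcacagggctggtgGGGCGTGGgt
Sox2: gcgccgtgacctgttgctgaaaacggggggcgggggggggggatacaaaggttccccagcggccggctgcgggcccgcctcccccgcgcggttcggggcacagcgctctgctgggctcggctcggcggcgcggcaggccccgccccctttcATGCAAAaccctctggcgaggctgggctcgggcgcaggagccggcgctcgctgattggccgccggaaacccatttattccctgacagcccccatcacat
Zfp42: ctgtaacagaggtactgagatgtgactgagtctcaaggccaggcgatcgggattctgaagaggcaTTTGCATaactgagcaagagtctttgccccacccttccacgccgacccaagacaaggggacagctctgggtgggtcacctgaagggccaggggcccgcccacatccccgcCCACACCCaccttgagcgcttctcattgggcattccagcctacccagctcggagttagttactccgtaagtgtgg
Esrrb: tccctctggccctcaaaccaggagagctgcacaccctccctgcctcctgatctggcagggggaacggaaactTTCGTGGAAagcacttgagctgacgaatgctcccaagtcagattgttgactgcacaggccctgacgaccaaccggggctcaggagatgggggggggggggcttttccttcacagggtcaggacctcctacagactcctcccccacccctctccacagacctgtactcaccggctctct

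In the Nanog window the octamer lay 75 to 69 bases before the start, with a SOX match at 67 to 62 bases, so that the pair is separated by a single base, and a KLF match at 10 to 3 bases. In the Sox2 window the octamer was on the opposite strand, 99 to 93 bases before the start. Zfp42 held an octamer at 185 to 179 bases and a KLF match on the opposite strand at 75 to 68 bases, and Esrrb a STAT match at 178 to 170 bases. Of the other members with a window, Pou5f1 held 1 KLF match, Tfcp2l1 held 2, and Klf2 and Klf4 held none of the 5 motifs. Among all 32851 RefSeq windows of this length, 4.12% held the octamer, 10.7% the SOX, 15.9% the KLF, 4.08% the ESRRB and 7.02% the STAT motif. The 3 octamer windows belong to genes that did not move together: Nanog fell with both starvations, Zfp42 rose with both, and Sox2 rose with Thr but fell with Cys starvation. A match is a description of letters and does not show binding.

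Thr starvation changed all 10 genes at an adjusted p of 0.05 or less, and in both directions. Tbx3, Klf4, Sox2, Esrrb, Tfcp2l1 and Zfp42 rose, and Prdm14, Nanog, Pou5f1 and Klf2 fell. The changes ranged from a log2 fold change of -0.67 for Prdm14 to 1.51 for Tbx3, and only Tbx3 changed by more than 1 on this scale. In the same test 63% of the 20143 genes tested were called, 31.1% higher and 31.9% lower, and 80.6% of the 11410 genes that averaged 5 CPM or more, so most well expressed genes were called alongside the 10. For 9 of the 10, all but Klf2, Thr-starved libraries were fully separate from unstarved ones, against 66.5% of all genes. The median size of the change was 0.42 (log2) over the 10 genes, 0.39 over all genes tested and 0.31 over genes with at least 5 CPM, as all 10 members have.

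The log2 fold changes with Cys starvation were smaller in size than with Thr for all members but Klf2, Tfcp2l1 and Zfp42. Esrrb, Zfp42 and Klf4 rose, Tfcp2l1, Klf2, Sox2, Pou5f1 and Nanog fell, and Tbx3 and Prdm14 did not pass the test. The log2 fold changes lay between -0.27 for Tfcp2l1 and 0.26 for Esrrb. Of all genes tested 36.3% were called, 17.5% higher and 18.8% lower, and 55% of genes with at least 5 CPM. Libraries did not overlap for 8 of the 10 members and for 46.4% of all genes. The median size was 0.14 over the 10 genes, 0.17 over all genes and 0.13 over genes with at least 5 CPM. Calls over all genes were 48.2% higher with TMM, 36.8% with the deposited size factors and 68.0% with total counts only, so the balance of directions in this comparison depends on the scaling.

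**Figure D2:**
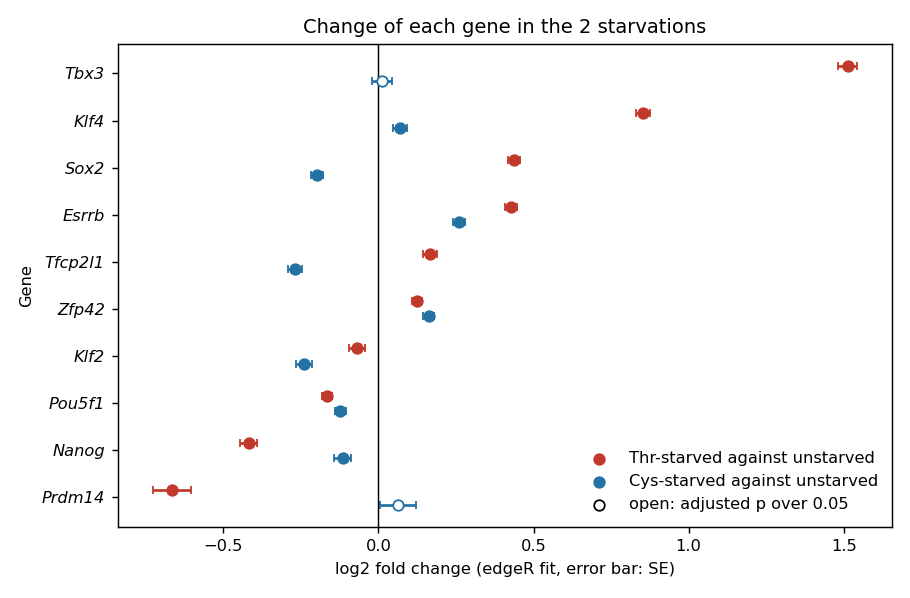
Log2 fold change (edgeR) of each gene with Thr starvation (red) and Cys starvation (blue) against the same 3 unstarved libraries, with SE bars and open circles where the adjusted p is over 0.05. Tbx3 lies at 1.51 with Thr and 0.01 with Cys starvation, and Sox2 and Tfcp2l1 lie on opposite sides of 0.

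Both comparisons above share the unstarved libraries, so Thr starvation was set against Cys starvation in a test of its own. Tbx3, Klf4, Sox2, Tfcp2l1, Klf2 and Esrrb were higher with Thr than with Cys starvation, and Prdm14, Nanog and Pou5f1 were lower. Zfp42 was not called. In this comparison 62% of all genes were called, 30.4% higher and 31.6% lower, and 80.6% of genes with at least 5 CPM. In CPM after TMM, all 10 members had Thr-starved libraries fully separate from Cys-starved ones, against 65.8% of all genes. With the deposited size factors the direct differences of Pou5f1 and Zfp42 were 0.000467 and 0.00582, and neither was called. The shares of genes with separate libraries, here and above, were not computed for genes with at least 5 CPM. The median size was 0.37 over the members, 0.36 over all genes and 0.28 over genes with at least 5 CPM. Of all calls 49.0% were higher with TMM and 39.99% with total counts only.

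Pou5f1 encodes OCT4, the POU-domain factor without which pluripotent cells are lost. It lies on chromosome 17 (GRCm38, 35506018 to 35510772, plus strand, ENSMUSG00000024406). Its levels were 846, 858 and 843 CPM in the unstarved, 763, 746 and 761 CPM in the Thr-starved and 779, 779 and 782 CPM in the Cys-starved libraries. Every starved library was below every unstarved one, and the Thr-starved were the lowest. The log2 fold change was -0.17 ± 0.017 (SE, adjusted p = 1.3e-08, edgeR) with Thr and -0.12 ± 0.017 (adjusted p = 5.4e-06) with Cys starvation. These were small changes, and 70.3% of genes with at least 5 CPM changed by at least as much with Thr starvation. The direct difference between the starvations was -0.04 ± 0.017 (adjusted p = 0.031). That call was lost in 7 of the 9 fits that left out a library, all but those without unstarved replicate 3 and without Thr-starved replicate 3, with an adjusted p of 0.059 to 0.13, and with DESeq2 (adjusted p = 0.10), and the difference was 0.000467 (adjusted p = 0.98) with the deposited size factors. The exons of Pou5f1 overlap the antisense gene Gm19553 over 317 of 2248 bases, and Gm19553 was listed at 0.0818 to 0.315 CPM over the 9 libraries.

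Sox2, the HMG-box factor that binds DNA together with OCT4, moved in opposite directions in the 2 starvations. It is a gene of chromosome 3 (34650405 to 34652461, plus strand, ENSMUSG00000074637). Unstarved libraries held 391.5, 399.8 and 399 CPM, Thr-starved libraries 537, 539.7 and 534 CPM, and Cys-starved libraries 345, 345 and 349 CPM. The 3 groups were fully separate, with Thr-starved above and Cys-starved below the unstarved libraries. Relative to unstarved cells the log2 fold change was 0.44 ± 0.020 (adjusted p = 6.1e-15) with Thr and -0.20 ± 0.020 (adjusted p = 4.4e-08) with Cys starvation, and the direct difference was 0.63 ± 0.020 (adjusted p = 1.3e-17). The ratio of Sox2 to Pou5f1 per length, which does not depend on the scaling between libraries, was 0.506, 0.509 and 0.517 in unstarved, 0.770, 0.790 and 0.767 in Thr-starved and 0.483, 0.484 and 0.488 in Cys-starved libraries. With the longest transcript as length the means were 0.309 in unstarved, 0.470 in Thr-starved and 0.294 in Cys-starved cells. The products of these genes act as a pair, and the RNA of the pair was closest to equal after Thr starvation with either length. How near to equal it came depends on the length used.

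Nanog, the homeodomain factor that holds ES cells back from differentiation, fell in both starvations and more with Thr. The gene is on chromosome 6 (122707489 to 122714633, plus strand, ENSMUSG00000012396). It was at 289.9, 280.2 and 278 CPM in unstarved, 204, 214 and 216 CPM in Thr-starved and 263, 266 and 253 CPM in Cys-starved libraries. The groups did not overlap, and the Cys-starved libraries lay between the others. In the edgeR test the log2 fold change was -0.42 ± 0.027 (adjusted p = 3.5e-12) with Thr, -0.12 ± 0.026 (adjusted p = 0.0013) with Cys and -0.30 ± 0.027 (adjusted p = 1.1e-09) between the starvations. With total counts only, the Cys change was -0.05 and not called (adjusted p = 0.14). For Nanog, 451 of the 2211 bases of its longest transcript matched 57 other annotated genes at 95% identity or more, the longest match being 245 bases. Which kinds of genes these are was not examined. The counts of Nanog are uncertain to the extent that reads could be split. The pseudogene with the longest match, Nanog-ps1, was listed at 0.380 to 0.872 CPM over the 9 libraries.

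Esrrb encodes an orphan nuclear receptor that is a target of Nanog and can stand in for it. It rose in both starvations, opposite to Nanog. The gene spans chromosome 12 (86361117 to 86521628, plus strand, ENSMUSG00000021255). Levels were 477, 496 and 488 CPM in unstarved, 649, 653 and 663 CPM in Thr-starved and 593, 583 and 574 CPM in Cys-starved libraries. Thr-starved libraries were the highest and unstarved ones the lowest, without overlap. The log2 fold change was 0.43 ± 0.020 (adjusted p = 1.7e-14) with Thr, 0.26 ± 0.020 (adjusted p = 9.2e-10) with Cys and 0.17 ± 0.020 (adjusted p = 1.7e-07) between the starvations. The Cys change was the largest increase among the 10 members in that comparison. The ratio of Esrrb to Nanog per length was 0.639 ± 0.0250 (SD, n = 3) in unstarved, 1.15 ± 0.0264 in Thr-starved and 0.829 ± 0.0151 in Cys-starved cells. With the longest transcript as length it was 0.886, 1.59 and 1.15, so the level at which the genes stand to each other depends on the length used, while the order of the 3 groups does not.

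Tfcp2l1, a grainyhead-family factor and a target of LIF and STAT3, also split the starvations. It maps to chromosome 1 (118627945 to 118685168, plus strand, ENSMUSG00000026380). The unstarved libraries had 272, 271 and 265 CPM, the Thr-starved 299, 299 and 309 CPM and the Cys-starved 219.5, 223 and 228 CPM. The order was Thr-starved above unstarved above Cys-starved in every library. Thr starvation gave a log2 fold change of 0.17 ± 0.023 (adjusted p = 1.6e-06) and Cys starvation of -0.27 ± 0.023 (adjusted p = 5.9e-09), the largest decrease among the members with Cys. The direct difference was 0.44 ± 0.023 (adjusted p = 2.2e-13). Tfcp2l1 and Sox2 were the only members called in opposite directions by the 2 starvations, and both kept these calls under every scaling and in every fit without a library.

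Klf4, a Krüppel-like zinc finger factor and a direct target of STAT3, rose strongly with Thr starvation and only slightly with Cys. It is on chromosome 4 (55527143 to 55532466, minus strand, ENSMUSG00000003032). Its levels were 146, 151 and 147 CPM in unstarved, 269, 263 and 269 CPM in Thr-starved and 155, 155 and 155 CPM in Cys-starved libraries. The Thr-starved libraries stood far above both other groups, which also did not overlap each other. The log2 fold change with Thr was 0.85 ± 0.023 (adjusted p = 1.2e-18), and 11.5% of genes with at least 5 CPM changed by this much or more. With Cys it was 0.07 ± 0.023 (adjusted p = 0.024), and the direct difference was 0.78 ± 0.023 (adjusted p = 6.5e-18). The Cys call was lost without unstarved replicate 1 (0.06, adjusted p = 0.12), without unstarved replicate 3 (adjusted p = 0.073) and without Cys-starved replicate 1, 2 or 3 (adjusted p = 0.058, 0.053 and 0.056), and with the deposited size factors (0.03, adjusted p = 0.42).

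Klf2, the family member that is more tied to low MEK signalling and is named as partly redundant with Klf4, did not follow it. It lies on chromosome 8 (72319033 to 72321656, plus strand, ENSMUSG00000055148). It was at 201, 210.3 and 204 CPM in unstarved, 193, 191 and 202 CPM in Thr-starved and 175, 174 and 172 CPM in Cys-starved libraries. The Thr-starved and unstarved libraries overlapped, and the Cys-starved ones were below both. The log2 fold change with Thr was -0.07 ± 0.026 (adjusted p = 0.022), a call that was lost without unstarved replicate 2 (-0.04, adjusted p = 0.17), without Thr-starved replicate 1 (-0.06, adjusted p = 0.11) and without Thr-starved replicate 2 (-0.05, adjusted p = 0.11). With Cys it was -0.24 ± 0.026 (adjusted p = 1.2e-07), and the direct difference was 0.17 ± 0.026 (adjusted p = 3.9e-06). The ratio of Klf4 to Klf2 per length was 0.437 ± 0.00274 in unstarved, 0.828 ± 0.0187 in Thr-starved and 0.541 ± 0.00419 in Cys-starved cells (SD, n = 3).

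Tbx3, a T-box factor that sustains Nanog in ES cells, changed most of the 10 with Thr starvation. It is on chromosome 5 (119670669 to 119684724, plus strand, ENSMUSG00000018604). The unstarved libraries held 43.2, 43.9 and 46.3 CPM, the Thr-starved 127, 128 and 126 CPM and the Cys-starved 44.8, 44.3 and 45.3 CPM. The Thr-starved libraries were well apart from all others, and the Cys-starved libraries lay inside the range of the unstarved ones. The log2 fold change with Thr was 1.51 ± 0.031 (adjusted p = 7.3e-21), at rank 107 of the increases among the 11410 genes with at least 5 CPM, and 2.23% of these genes changed by this much or more in either direction. Against Cys starvation the difference was 1.501 ± 0.031 (adjusted p = 1.1e-20), at rank 48 of the increases. With Cys the value was 0.01 ± 0.032 (adjusted p = 0.83), and its sign turned with the deposited size factors (-0.03) and without unstarved replicate 1 (-0.01). The rise of Tbx3 with Thr starvation went with a decrease of Nanog in the same libraries. Tbx3 shares 115 of its 6624 exon bases with the antisense gene Tbx3os1, which was listed at 0.0496 to 0.510 CPM over the 9 libraries.

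Zfp42 encodes REX1, a zinc finger protein whose expression marks the naive state. It rose in both starvations. The gene lies on chromosome 8 (43295063 to 43306980, minus strand, ENSMUSG00000051176). Levels were 759.7, 774 and 770.2 CPM in unstarved, 834, 832 and 843 CPM in Thr-starved and 857, 860.5 and 859.5 CPM in Cys-starved libraries. Both starved groups were above the unstarved libraries, and the Cys-starved were the highest. Relative to unstarved cells the log2 fold change was 0.12 ± 0.017 (adjusted p = 8.8e-07) with Thr and 0.16 ± 0.017 (adjusted p = 7.5e-08) with Cys starvation. The direct difference was -0.04 ± 0.017 (adjusted p = 0.051), which was called without Thr-starved replicate 3 (-0.04, adjusted p = 0.042) and turned to 0.01 (adjusted p = 0.80) with the deposited size factors. The pseudogene Zfp42-ps1 matched 495 of the 1837 bases of the longest Zfp42 transcript at 95% identity or more. It was listed at 102 to 107 CPM in unstarved, 111 to 113 CPM in Thr-starved and 113 to 119 CPM in Cys-starved libraries, and reads of the pair could have been split between them.

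Prdm14, a PR-domain factor that represses FGF receptor signalling and DNA methyltransferase genes, was the lowest of the 10 and the one with the largest decrease with Thr starvation. It is on chromosome 1 (13113457 to 13127163, minus strand, ENSMUSG00000042414). It had 16.2, 15.7 and 14.4 CPM in unstarved, 9.06, 10.0 and 10.1 CPM in Thr-starved and 16.4, 15.98 and 16.1 CPM in Cys-starved libraries. All Thr-starved libraries were below all others, and the Cys-starved overlapped the unstarved ones. In the edgeR test the log2 fold change was -0.67 ± 0.062 (adjusted p = 2.8e-09) with Thr, 0.06 ± 0.058 (adjusted p = 0.45) with Cys and -0.73 ± 0.062 (adjusted p = 6.0e-10) between the starvations. With Thr, 19.4% of genes with at least 5 CPM changed by at least this size. The ratio of Tbx3 to Prdm14 per length was 1.12 ± 0.109 (SD, n = 3) in unstarved, 5.06 ± 0.304 in Thr-starved and 1.07 ± 0.0151 in Cys-starved cells, and 1.49, 6.73 and 1.43 with the longest transcript as length. Tbx3 was above Prdm14 in every library of the 3 groups.

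**Figure D3:**
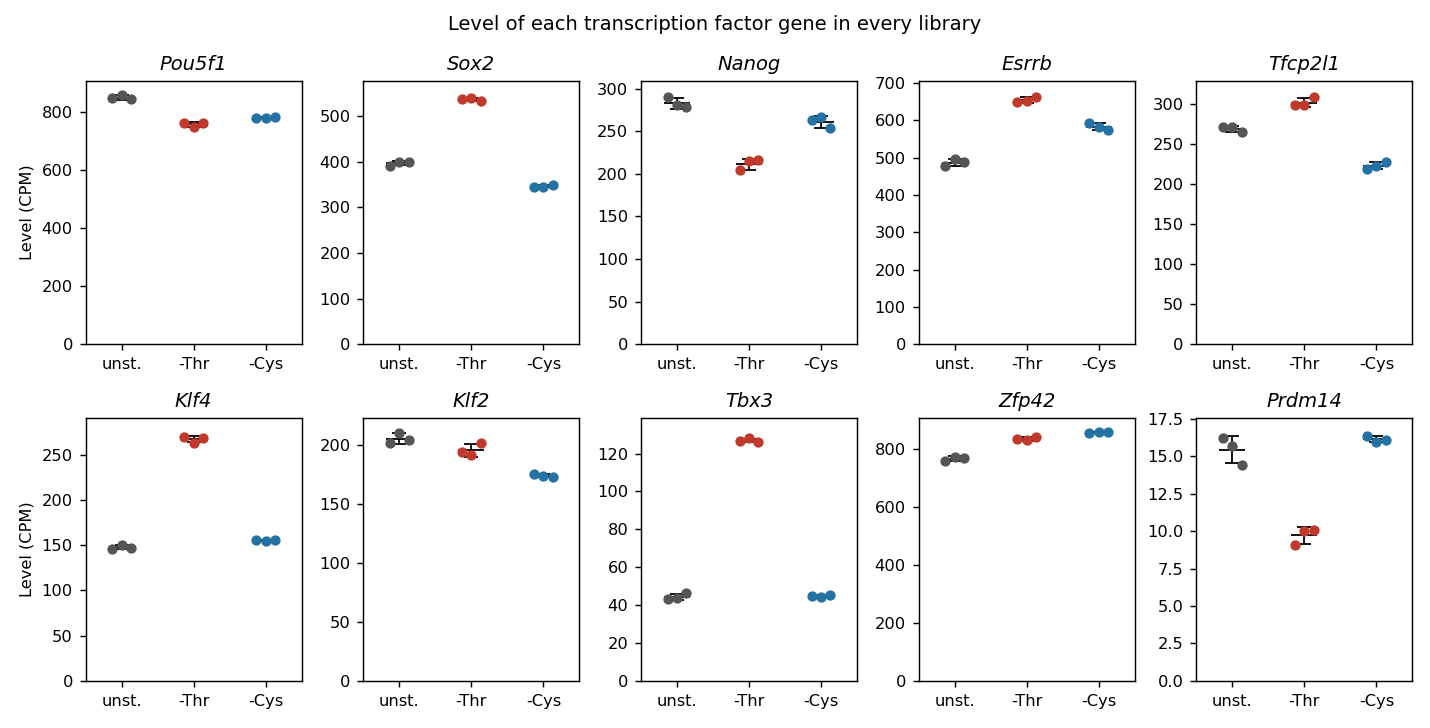
Level (CPM, linear axis from 0) of each gene in the 3 unstarved, 3 Thr-starved (-Thr) and 3 Cys-starved (-Cys) libraries, with a point per library and bars for the mean ± SD. The Thr-starved points do not overlap either other group for any gene but Klf2, where they overlap the unstarved points.

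Other genes of the table had nearly the same pair of changes as a member, measured as the distance between the pair of log2 fold changes (Thr and Cys, each against unstarved) over 11410 genes. The nearest gene to Tbx3 was Hspb8, a small heat shock protein gene, at a distance of 0.00979. The nearest to Klf4 was Dmxl1 (0.0124), to Sox2 Cab39l (0.0119), to Tfcp2l1 Acp1 (0.0151) and to Zfp42 Cdc16 (0.00371). For the genes that fell, these were Trpm4 for Nanog (0.00260), B230118H07Rik for Pou5f1 (0.00572), Stxbp3 for Klf2 (0.00481) and Slc12a9 for Prdm14 (0.0103). No member was the nearest gene of another, but with 11410 genes searched this had little room to be otherwise. It does not show whether the members moved together. Each distance was smaller than the SE of the member's own changes, so the named genes are not resolved from others close by. With DESeq2 the nearest gene to Klf4 was Atg12, and with a minimum of 1 CPM the nearest to Prdm14 was Ccdc151.

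The regulators around the 10 genes were described with a list of 28 further transcription factors and coregulators of the ES cell network. With Thr starvation 15 rose, 12 fell and 1 was not called (median log2 fold change 0.15, against -0.02 over all genes tested), where 31.1% of all genes rose, 31.9% fell and 80.6% of genes with at least 5 CPM were called. With Cys starvation 8 rose, 11 fell and 9 were not called (median -0.01, against 0.01 over all genes), where 17.5% of all genes rose and 18.8% fell. The count of increases with Cys depended on the scaling, at 5 with the deposited size factors and 14 with total counts only. Between the starvations 14 were higher and 11 lower with Thr, where 30.4% of all genes were higher and 31.6% lower.

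Among the partners, Stat3, the factor that carries the LIF signal to Klf4 and Tfcp2l1, was at 126, 138 and 134 CPM in unstarved, 344, 353 and 338 CPM in Thr-starved and 134, 134 and 135 CPM in Cys-starved libraries. The Thr-starved libraries were far above the others, and the Cys-starved lay among the unstarved ones. The log2 fold change was 1.38 ± 0.029 (adjusted p = 9.7e-21) with Thr and 0.02 (adjusted p = 0.66) with Cys. Klf5, the third Krüppel-like factor of the network, went from 217 ± 7.90 CPM to 464 ± 11.5 CPM with Thr (log2 fold change 1.09, adjusted p = 2.4e-19) and rose by 0.24 (adjusted p = 3.2e-07) with Cys. Rest, a zinc finger repressor of neuronal genes, rose with Thr (0.72, adjusted p = 1.2e-16) and fell slightly with Cys (-0.07, adjusted p = 0.042). Nr0b1, which encodes the OCT4-binding protein DAX1, rose with both (0.68 and 0.32, adjusted p = 3.3e-15 and 1.1e-08). Smad1, a transducer of BMP signals, also rose with both (0.24 and 0.40, adjusted p = 8.1e-05 and 3.0e-07).

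With Thr starvation Foxd3, Gbx2, Myc and Etv5 fell further than any of the 10 members. Foxd3, a forkhead factor of the epiblast, went from 34.6, 35.1 and 32.7 CPM in unstarved to 6.92, 6.73 and 6.63 CPM in Thr-starved and 21.2, 20.3 and 18.6 CPM in Cys-starved libraries. The 3 groups were separate, and the log2 fold change was -2.34 ± 0.059 (adjusted p = 2.6e-19) with Thr and -0.77 ± 0.050 (adjusted p = 6.2e-11) with Cys. Gbx2, a homeobox gene downstream of STAT3, fell by 1.80 on the log2 scale with Thr (adjusted p = 1.3e-19) and by 0.73 with Cys (adjusted p = 2.7e-12), while Stat3 RNA itself rose with Thr. Myc, the growth-promoting bHLH factor that LIF sustains, fell by 1.34 (adjusted p = 8.8e-19) and 0.31 (adjusted p = 1.5e-07). Etv5, an ETS factor induced by FGF and ERK signals, fell with Thr (-0.77, adjusted p = 5.0e-17) and had a value of -0.02 (adjusted p = 0.58) with Cys. Nr5a2, a nuclear receptor that activates Pou5f1, fell with both (-0.35 and -0.32, adjusted p = 6.0e-10 and 1.4e-08). Prdm15, another PR-domain gene, had opposite calls (-0.15 with Thr, adjusted p = 0.014, and 0.24 with Cys, adjusted p = 0.00044).

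**Figure D4:**
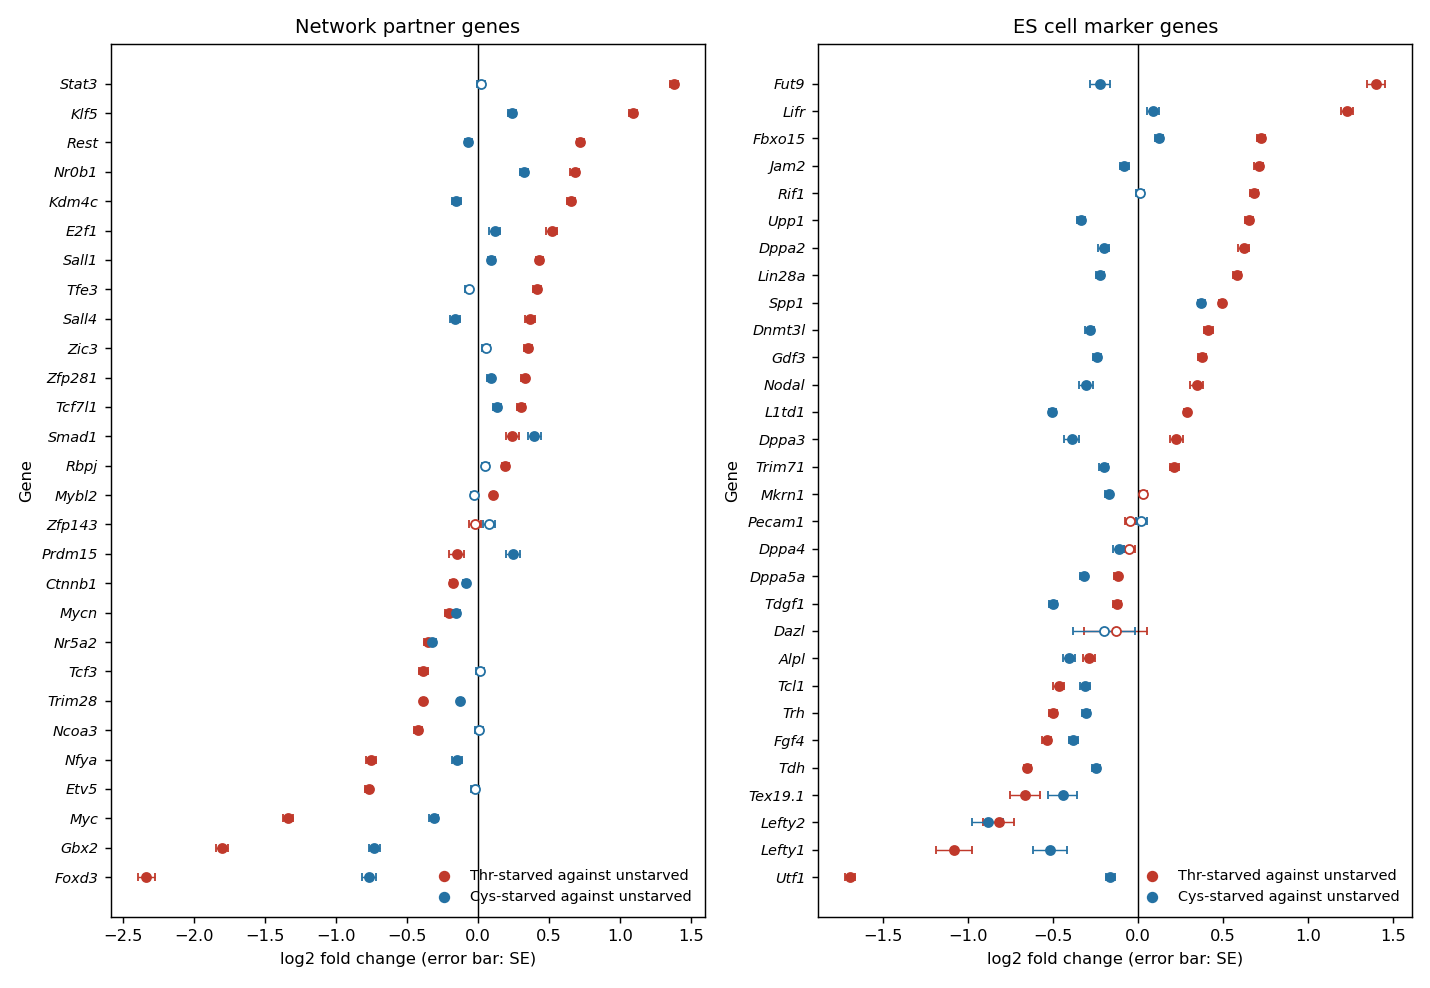
Log2 fold change (edgeR, SE bars) of the 28 partner genes (left) and the 30 other ES cell marker genes (right) with Thr (red) and Cys (blue) starvation against unstarved cells, with open circles where the adjusted p is over 0.05. With Thr the partners reach from -2.34 (Foxd3) to 1.38 (Stat3), and with Cys 24 of the 30 markers were called lower, against 18.8% of all genes.

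Of the 30 other ES cell marker genes, 15 rose, 11 fell and 4 were not called with Thr starvation (median log2 fold change 0.12, with 63% of all genes called). With Cys starvation 3 rose, 24 fell and 3 were not called (median -0.24, against 0.01 over all genes, of which 17.5% rose and 18.8% fell). In the direct comparison 19 were higher and 7 lower with Thr, where 30.4% of all genes were higher and 31.6% lower. Of genes with at least 5 CPM, 80.6% were called there. Lifr, the LIF receptor subunit, was at 130, 130 and 121 CPM in unstarved, 299, 307 and 292 CPM in Thr-starved and 131, 131 and 145 CPM in Cys-starved libraries. It was above all other libraries after Thr starvation, with a log2 fold change of 1.23 ± 0.035 (adjusted p = 2.5e-18), and had 0.09 ± 0.035 (adjusted p = 0.049) with Cys. Utf1, a chromatin factor gene bound by OCT4 and SOX2, had 299, 314 and 309.6 CPM in unstarved, 94.9, 97.1 and 93.2 CPM in Thr-starved and 277, 282 and 266 CPM in Cys-starved libraries. It fell by 1.69 on the log2 scale with Thr (adjusted p = 1.3e-22) and by 0.16 with Cys (adjusted p = 3.6e-05), while Sox2 rose and Pou5f1 fell with Thr.

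Further markers with large increases after Thr starvation were Fut9, which makes the SSEA-1 antigen (1.40, adjusted p = 4.0e-16), Fbxo15, a target of OCT4 and SOX2 (0.72, adjusted p = 2.8e-17), and the junctional adhesion gene Jam2 (0.71, adjusted p = 5.2e-16). With Cys, Fut9 fell (-0.22, adjusted p = 0.0043), Jam2 fell (-0.08, adjusted p = 0.030) and Fbxo15 rose (0.12, adjusted p = 0.00026). The Nodal antagonist genes Lefty1 and Lefty2 fell with Thr (-1.08 and -0.82, adjusted p = 7.6e-09 and 4.7e-08) and with Cys (-0.52 and -0.88, adjusted p = 0.00028 and 6.8e-08). Tex19.1, a germ cell and ES cell gene, fell by 0.67 with Thr (adjusted p = 6.3e-07) and by 0.44 with Cys (adjusted p = 0.00025). The Nodal co-receptor gene Tdgf1 fell by 0.12 with Thr (adjusted p = 3.8e-05) and by 0.50 with Cys (adjusted p = 8.0e-14). L1td1, an RNA-binding protein gene, rose with Thr (0.29, adjusted p = 5.3e-12) and fell with Cys (-0.50, adjusted p = 4.9e-15), and Spp1, which encodes osteopontin, rose with both (0.50 and 0.37, adjusted p = 4.2e-16 and 9.0e-13).

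The sum over the 10 members was 3443 to 3499 CPM in unstarved, 3877 to 3933 CPM in Thr-starved and 3435 to 3448 CPM in Cys-starved libraries. The sum was higher after Thr starvation without overlap, although Pou5f1, Nanog, Klf2 and Prdm14 fell, while the Cys-starved sums overlapped the unstarved ones. The latter depends on the scaling, since the share of all counts was 0.355% to 0.357% in Cys-starved against 0.342% to 0.344% in unstarved libraries, without overlap. Of the genes named above as downstream of LIF or STAT3, Klf4, Tfcp2l1 and Tbx3 rose with Thr while Gbx2 and Myc fell, and with Cys Klf4 rose, Tfcp2l1, Gbx2 and Myc fell and Tbx3 was not called. What moved these genes was not tested.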

How the data were processed

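Poly(A) RNA of 9 samples (3 unstarved, 3 Thr-starved, 3 Cys-starved) was sequenced, with group and replicate number given by the titles. The authors aligned the reads to GRCm38 with STAR 2.7.4a, obtained gene counts with HTSeq and deposited them unnormalized. Their strand and overlap settings for counting are not given in the sources used here. The deposited signal values of a companion table are the raw counts over a DESeq2 size factor of each library, and these factors served as an alternative scaling. The submitters' processing notes also name bcl2fastq, FastQC 0.11.7 and R 4.0.3. Even counts made up 67.8% of the 28226 values from 1 to 20, so both ends of a fragment may have been counted. On counts halved for this, replicates differed by 0.99 to 1.07 in chi-square per gene at 20 to 200 counts per pair, near the 1 of sampling noise, and by 1.62 to 8.12 at 2000 counts or more, beyond it in all 9 pairs.

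The raw counts were tested with edgeR 4.0.16 in R 4.3.3 (TMM, quasi-likelihood test, all 9 libraries in a single fit, genes with at least 1 count in total, Benjamini-Hochberg adjustment over the 20143 genes tested, called at 0.05 or less). The members and gene lists were chosen with earlier results of these data known, so no test over a list was run. Genes named beside the members were, per list and per comparison with unstarved cells, up to 4 called genes that rose most and up to 4 that fell most, all averaging 5 CPM or more, and for each member the nearest gene by its pair of changes. The nearest gene to Esrrb is not reported here. The ratios between members, with either length, and the genes overlapping or resembling them were added after seeing the data. Symbols, coordinates and exon lengths came from GENCODE M21 (18 identifiers had no entry), upstream sequences from RefSeq on GRCm38.p6 and near-identical sequence from BLAST 2.17.0. The fit was tested on simulated data. Alternatives were DESeq2 1.42.0, 4 other scalings, 3 other filters, fits of the 2 groups compared, the replicate block, other thresholds, each fit without a library and, added after seeing the data, counts halved.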

Additional observations from a re-analysis of the deposited data

How the results depend on the processing

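Of 630 alternative values for the log2 fold changes of the 10 genes, 597 kept their direction and their side of the threshold, 24 lost the call, 5 gained it and 4 turned sign. Part of the 630 had little room to differ. The stricter threshold reused the fold changes of the main fit, and leaving out a library of the group not compared hardly moved a fold change. The sign turned for Tbx3 with Cys starvation (-0.0306 with the deposited size factors and -0.0125 without unstarved replicate 1, within a range of -0.0125 to 0.0406 over the fits without a library) and, with the deposited size factors, for Pou5f1 (0.000467) and Zfp42 (0.00582) in the direct comparison. None of these 4 values was called, and the cause was not tested. Zfp42 was called in the direct comparison with upper-quartile scaling (-0.10), total counts only (-0.12), counts halved (-0.04), 10 or more counts in each library (-0.05) and without Thr-starved replicate 3 (-0.04). Asking also for a size of 1 or more on the log2 scale left 1 member with Thr starvation (1 higher, 0 lower), 0 with Cys and 1 in the direct comparison (1 higher, 0 lower). By its construction it also left 5 partner genes with Thr (2 higher, 3 lower), 0 with Cys and 4 in the direct comparison (1 higher, 3 lower), and 4 other marker genes with Thr (2 higher, 2 lower), 0 with Cys and 3 in the direct comparison (2 higher, 1 lower). Partner genes called higher with Cys numbered 5 with the deposited size factors and 14 with total counts only. With the longest transcript as length, 6 members kept their position.

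With the replicate block, 10 members were called with Thr, 8 with Cys and 8 in the direct comparison, where Pou5f1 (-0.04, adjusted p = 0.053) was lost, and no other call of a member changed. Libraries of the same number deviated from the means of their groups with correlations of -0.244 to 0.106 over 9 pairs. A library correlated best with its own number in 2 of 18 cases. Deviations from the mean of a small group depend on each other, so these values cannot show whether same-number libraries shared a culture. Changes under about 0.1 (log2) lie within what scaling or a single library moves. Among them are those of Klf2 with Thr and Klf4 with Cys and the direct differences of Pou5f1 and Zfp42. Scaling also reached the larger change of Nanog with Cys (-0.12). It was not called by edgeR with total counts only (-0.05, adjusted p = 0.14). The unknown counting settings limit Nanog, Zfp42 and Pou5f1, which share sequence or exons with other genes.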

Other observations

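Genes of the formative and primed epiblast, the states that follow naive pluripotency, moved in both directions with Thr starvation. Of 7 such genes 2 rose and 4 fell with Thr, and 0 rose and 5 fell with Cys, where 31.9% and 18.8% of all genes fell. Their sum was 274 to 283 CPM in unstarved, 221 to 228 CPM in Thr-starved and 218 to 224 CPM in Cys-starved libraries. Most of this sum was Dnmt3b, at 212 CPM in unstarved cells. Fgf5, a defining marker, averaged under 1 CPM in each group. It fell with Thr (-3.66, adjusted p = 1.8e-07) and had -0.32 (adjusted p = 0.45) with Cys. Lef1, at 2.94 CPM in unstarved cells, fell with both (-2.59 and -0.95, adjusted p = 1.7e-11 and 2.4e-05). Sox3, at 3.29 CPM in unstarved cells, had -0.19 (adjusted p = 0.16) with Thr and fell with Cys (-0.37, adjusted p = 0.015). Pou3f1, the POU factor of the primed epiblast, fell with Thr (-2.15, adjusted p = 2.0e-15) and with Cys (-0.22, adjusted p = 0.022). The DNA methyltransferase gene Dnmt3b fell with both (-0.71 and -0.38, adjusted p = 8.2e-17 and 3.7e-11). Otx2, a homeobox factor of that stage, rose with Thr (0.73, adjusted p = 1.7e-10) and fell with Cys (-0.38, adjusted p = 3.2e-05). Zic2 rose with Thr (1.16, adjusted p = 1.4e-16) and had a value of -0.02 (adjusted p = 0.75) with Cys.

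Mesendoderm and primitive endoderm markers were low. The sums for neuroectoderm and trophectoderm were higher and came mostly from Nes, Tfap2c and Krt8. Mesendoderm genes summed to 6.37 to 7.95 CPM in unstarved, 3.67 to 4.14 CPM in Thr-starved and 6.25 to 6.57 CPM in Cys-starved libraries, with Foxa2, Gsc and Mixl1 averaging under 1 CPM over the 9 libraries. Of the 5, 1 rose and 2 fell with Thr, and 1 rose and 1 fell with Cys. Of all genes tested 31.1% rose and 31.9% fell with Thr, and 17.5% rose and 18.8% fell with Cys. The mesendoderm gene that rose with both, Foxa2, averaged 0.323 CPM in unstarved cells. Primitive endoderm genes summed to 5.79 to 6.63, 5.41 to 6.10 and 8.25 to 9.61 CPM in the same order of groups, with Gata6, Pdgfra and Sox17 averaging under 1 CPM over the 9 libraries. Of these 5, 2 rose and 1 fell with Thr, and 2 rose and 0 fell with Cys, against the same shares of all genes. Sox17, which rose with Thr, averaged 0.244 CPM in unstarved cells. The neuroectoderm genes Sox1, Pax6 and Nes summed to 64.7 to 65.8, 75.4 to 78.2 and 75.0 to 78.9 CPM, most of it Nes, at 49.5 CPM in unstarved cells. Sox1 rose with Thr (0.88, adjusted p = 1.3e-10) and with Cys (0.51, adjusted p = 3.8e-06), Nes rose with both (0.11 and 0.16, adjusted p = 0.013 and 0.00096), and Pax6 rose with Cys (0.31, adjusted p = 0.0019) and had 0.13 (adjusted p = 0.16) with Thr. Trophectoderm genes summed to 104 to 110, 105 to 108 and 99.3 to 104 CPM, most of it Tfap2c and Krt8. Tfap2c rose with Thr (0.27, adjusted p = 2.1e-06) and fell with Cys (-0.11, adjusted p = 0.038), and Krt8 fell with Thr (-0.27, adjusted p = 2.3e-06). Cdx2 averaged 1.26 CPM in unstarved, 0.514 CPM in Thr-starved and 1.25 CPM in Cys-starved cells, and fell with Thr (-1.32, adjusted p = 4.4e-05). Hand1 averaged under 1 CPM over the 9 libraries, and Elf5 was not among the genes counted. None of the 4 genes of 2-cell-like cells was called in either comparison with unstarved cells by edgeR, where 63% and 36.3% of all genes were called. All 4 averaged under 1 CPM. Of the 4 fibroblast genes 2 fell with Thr and 1 with Cys, where 31.9% and 18.8% of all genes fell.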
